A study of Anopheles gambiae with 60 samples.

Results

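The probe sets described here were at least 2-fold higher in females than in males in at least 4 of 5 somatic tissues of the adult malaria mosquito Anopheles gambiae. The members were chosen from the measured values themselves. The female minus male difference of the group means on the log2 scale had to be at least 1, and the female mean at least 5 (an intensity of 32), in at least 4 of head, carcass, salivary gland, midgut and Malpighian tubules. Of 16884 mosquito probe sets on the array, 71 met this rule, 15 of them in all 5 tissues and 56 in exactly 4. A further 133 probe sets met it in 3 tissues, 342 in 2, 1337 in 1 and 15001 in none. None of the other 5877 probe sets on the array met it. The somatic sex differences chose the members and are therefore given as a description with no test. The whole-body, ovary, testis and accessory gland arrays played no part in the choice, and only these were tested.

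Female mosquitoes of this species take blood, and the protein of the meal is turned into yolk. Yolk proteins are made mainly in the fat body, a tissue that lines the body wall and fills spaces in the head, thorax and abdomen, and are carried through the haemolymph to the ovary. The midgut digests the blood, the salivary glands of females secrete the proteins that allow blood to flow, and the Malpighian tubules clear the water and salts. Males feed on sugar alone, and their accessory glands make the seminal proteins transferred at mating.

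Expression was measured on 60 Affymetrix arrays in 15 groups of 4 arrays each. The female groups were head, carcass, salivary gland, midgut, Malpighian tubules, whole body and ovary. The male groups were head, carcass, salivary gland, midgut, Malpighian tubules, whole body, testis and accessory gland (labelled acps). All animals were unmated adults, labelled as 5 days old, from a single strain. The labels mention blood feeding for both sexes, whereas per the study's methods the females alone were blood-fed and their age-matched brothers were dissected in parallel, so sex and the blood meal cannot be told apart in any female to male comparison. Each replicate was RNA pooled from many animals dissected 24, 48 and 72 h after the meal, so a time course cannot be seen. Head samples kept some fat body, salivary glands were rinsed to remove most of it, carcass was what remained of thorax and abdomen after the other tissues had been taken, and ovary samples included the common oviduct. Arrays of the same group correlated at 0.965 or higher over all probe sets, except in the ovary, where the lowest pair stood at 0.932. The deposited intensities had been normalized tissue by tissue, so that a level set across tissues joins separate normalizations. The lowest values, near log2 2.4, are a floor. Some probe sets also repeat a higher value in every array of a group, as Ag.2L.3944.0_at did at 4.04 in the testis. Whether such a value is a floor of that probe set was not tested. Of 29 marker genes chosen to check the tissues, 2 could be matched to a probe set, and the other labels were not checked against markers. Myosin heavy chain (AGAP010147), a muscle protein, averaged 5.98 in female carcass and 8.25 in male carcass. It averaged 6.91 in the accessory gland, 5.64 in female head and 5.33 in male head, so it did not single out the female carcass. Lipophorin (AGAP001826), the lipid carrier made by the fat body, averaged 13.08 in female carcass and 12.76 in male carcass.

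Only 13 of the 71 members could be matched to a gene identifier, so most are named by probe set. The 71 fall on 65 probe-set stems (a chromosome arm and a number), since 6 stems carry 2 members each: Ag.2R.3695, Ag.2R.346, Ag.2R.2273, Ag.3R.652, Ag.X.71 and Ag.X.76. Members on a shared stem are not separate observations. The names of 11 members end in _s_at or _x_at, both Ag.2R.3695 probe sets among them. Which transcripts these probe sets match was not checked. By the arm in the name, 8 members lay on X, 18 on 2R, 19 on 2L, 15 on 3R, 8 on 3L and 3 were unplaced. The shares of members were 11.3% on X, 25.4% on 2R, 26.8% on 2L, 21.1% on 3R, 11.3% on 3L and 4.23% unplaced. Over all probe sets they were 8.31%, 26.3%, 20.3%, 18.8%, 14.8% and 11.5% in the same order. Over those that reached the level limit in any group they were 6.24%, 30.1%, 22.3%, 21.3%, 15.6% and 4.51%. The 8 on X include the Ag.X.71 and Ag.X.76 pairs, and the shares by arm were not tested.

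The carcass was the most uniform of the 5 tissues, with a female minus male difference of at least 1 in all 71 members. The same held in 69 members in the salivary gland, 61 in the Malpighian tubules, 56 in the head and 49 in the midgut. Of all probe sets, 4.19% met the difference and the level together in carcass, 4.23% in salivary gland, 2.26% in Malpighian tubules, 1.97% in head and 3.45% in midgut. The median difference over the members was 2.64 in carcass, 2.59 in salivary gland, 1.81 in head, 1.58 in Malpighian tubules and 1.49 in midgut, where the median over all probe sets was 0 in each tissue. All 4 female arrays lay above all 4 male arrays in 69 members in carcass, 66 in salivary gland, 57 in Malpighian tubules, 55 in head and 43 in midgut. Over all probe sets the shares with female arrays above male arrays were 6.74% in carcass, 8.71% in salivary gland, 5.2% in Malpighian tubules, 4.31% in head and 6.23% in midgut. Since the rule fixed these contrasts, nothing is read from the distance between the members and those shares.

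**Figure D1:**
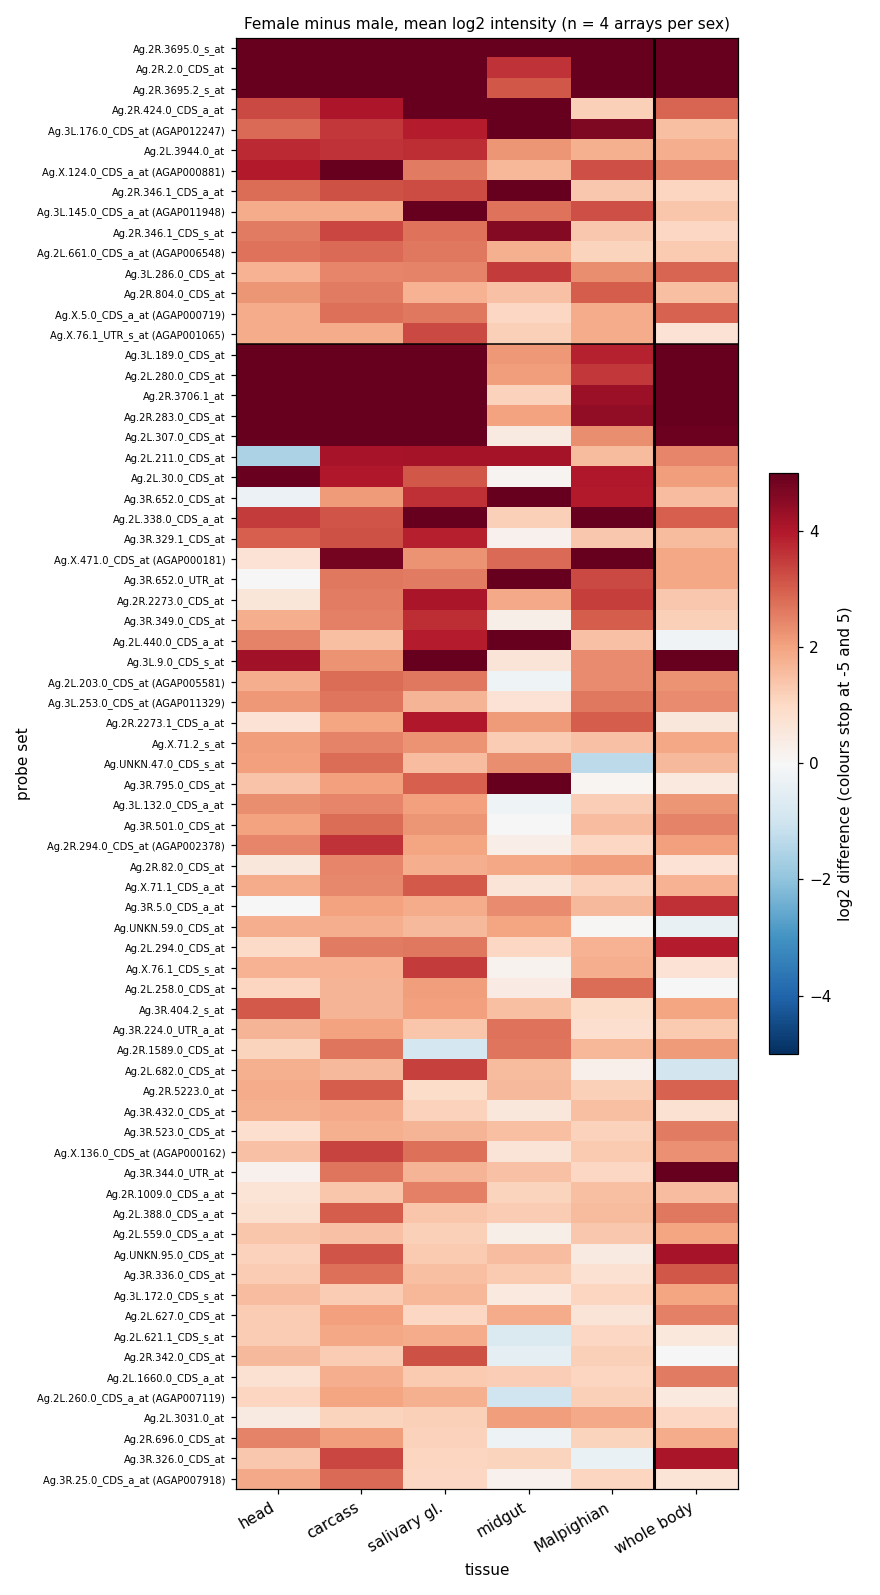
Female minus male difference of mean log2 intensity (n = 4 arrays per sex) for each of the 71 members, in the 5 somatic tissues that chose them (left of the thick line) and in the whole body (right of it); colours stop at -5 and 5, and the thin line parts the 15 members that met the rule in all 5 tissues from the 56 that met it in 4. The carcass column is red throughout, and pale or blue cells are most frequent in the midgut and head columns.

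**Figure D2:**
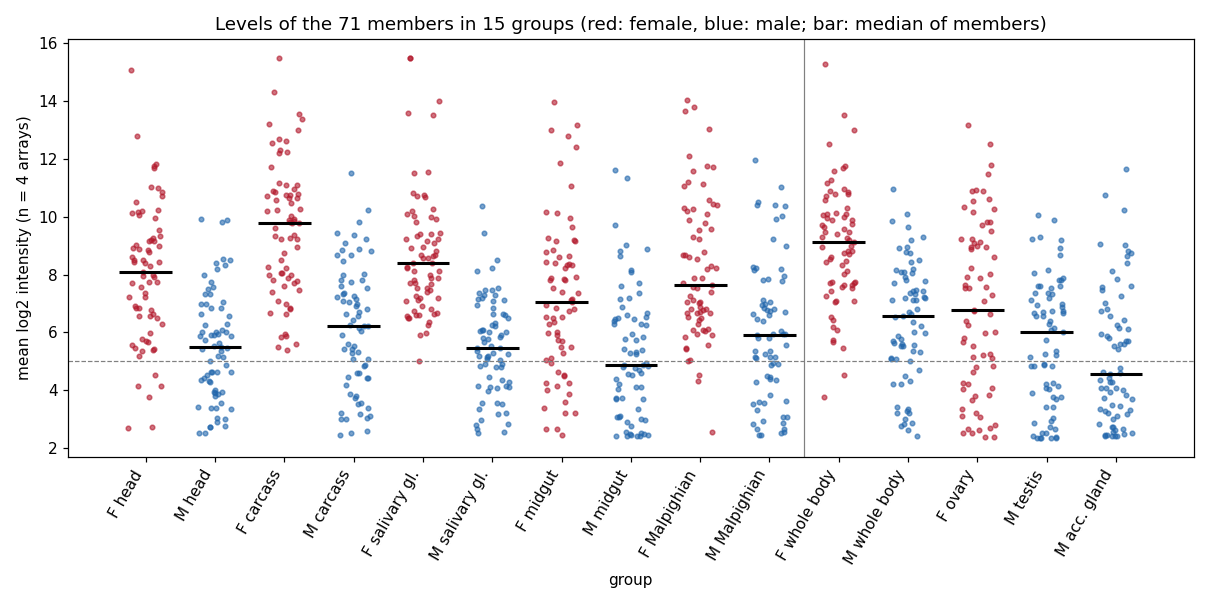
Mean log2 intensity (n = 4 arrays) of the 71 members in the 15 groups; each point is 1 member, black bars are the medians of the members, and the dashed line is the level limit of 5. The medians are 9.79 in female carcass and 6.23 in male carcass, and 6.77 in ovary, 6.0 in testis and 4.56 in accessory gland.

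The size of the difference varied both between members and between tissues of 1 member. The median over the 5 tissues ran between 1.06 and 9.70, with 8 members at 5 or more, 28 between 2 and 5, and 35 below 2. Within a member, the largest and smallest of the 5 differences lay 0.93 to 8.82 apart, with a median of 2.81. The male mean was below the limit of 5 in all 5 tissues in 10 members and in none of the 5 in 20 members. The members are thus a mixture of transcripts near the floor in male soma and transcripts measured in both sexes at different levels.

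The 8 members with a median difference of at least 5, a limit set after the values were seen, were bright in female tissues and near the floor in most male ones. They come from 7 stems and none could be matched to a gene. Their means ran between 12.26 and 15.50 in female carcass and between 2.45 and 5.44 in male carcass. In heads the range was 9.26 to 15.09 in females and 2.51 to 3.94 in males. All 8 met the rule in head, carcass, salivary gland and Malpighian tubules. In the midgut only the 3 leading ones did, and the female means there ran between 3.22 and 11.06, against 2.40 to 3.07 in males.

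Ag.2R.3695.0_s_at had the largest median difference, 9.70. In carcass its log2 intensity was 15.39, 15.48, 15.51 and 15.60 in females, against 2.93, 3.0, 2.97 and 3.59 in males. In the salivary gland it was 15.48, 15.67, 15.47 and 15.29 in females, against 11.44, 4.5, 5.39 and 8.53 in males. The female arrays were nearly level, whereas the male salivary gland arrays were spread between 4.5 and 11.44, all below the female ones, with replicate 1 the highest. Replicate 1 was also the highest male array for this probe set in the Malpighian tubules (7.62, against 3.42, 3.25 and 3.05 in the other replicates), in the testis (6.96, against 2.37, 2.61 and 3.69) and in the accessory gland (5.36, against 3.08, 3.44 and 3.91). In female midguts it read 11.24, 12.54, 9.11 and 11.34, against 3.0, 3.27, 3.0 and 3.0 in males, so the sexes did not overlap there either.

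The second probe set of the same stem, Ag.2R.3695.2_s_at, read 13.45, 13.09, 13.90 and 13.79 in female carcass, against 2.39, 2.39, 2.39 and 2.65 in male carcass. In the salivary gland it read 14.27, 14.60, 14.10 and 13.08 in females, against 5.19, 3.04, 2.65 and 3.30 in males. Both probe sets were thus high in every female carcass and salivary gland array, and male salivary gland replicate 1 was the highest male array in each. Ag.2R.2.0_CDS_at had 12.59, 12.95, 12.65 and 13.03 in female heads, against 2.87, 2.95, 3.43 and 2.74 in male heads. In the Malpighian tubules it had 9.78, 8.47, 8.16 and 11.95 in females, against 3.96, 2.59, 2.67 and 2.56 in males. In the midgut it had 7.53, 8.82, 2.93 and 4.76 in females, against 2.40 in each male array. Replicate 3 of the female midgut stood just above the male floor, so the female mean of 6.01 there rests on the other 3 arrays.

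The remaining 5 of these members, Ag.3L.189.0_CDS_at, Ag.2L.280.0_CDS_at, Ag.2R.3706.1_at, Ag.2R.283.0_CDS_at and Ag.2L.307.0_CDS_at, met the rule in every tissue but the midgut. Ag.3L.189.0_CDS_at read 12.40, 12.53, 12.73 and 12.54 in female carcass, against 2.56, 2.53, 2.41 and 2.53 in male carcass. Ag.2L.307.0_CDS_at was the only one of the 8 with a male carcass mean above the limit, at 12.27, 12.16, 12.20 and 12.39 in females, against 5.34, 5.5, 5.98 and 4.94 in males. In midguts Ag.2R.3706.1_at read 4.67, 4.76, 2.43 and 2.45 in females, against 2.40, 2.41, 2.40 and 2.41 in males. Its female midgut arrays fell into a pair above the floor and a pair at it.

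**Figure D3:**
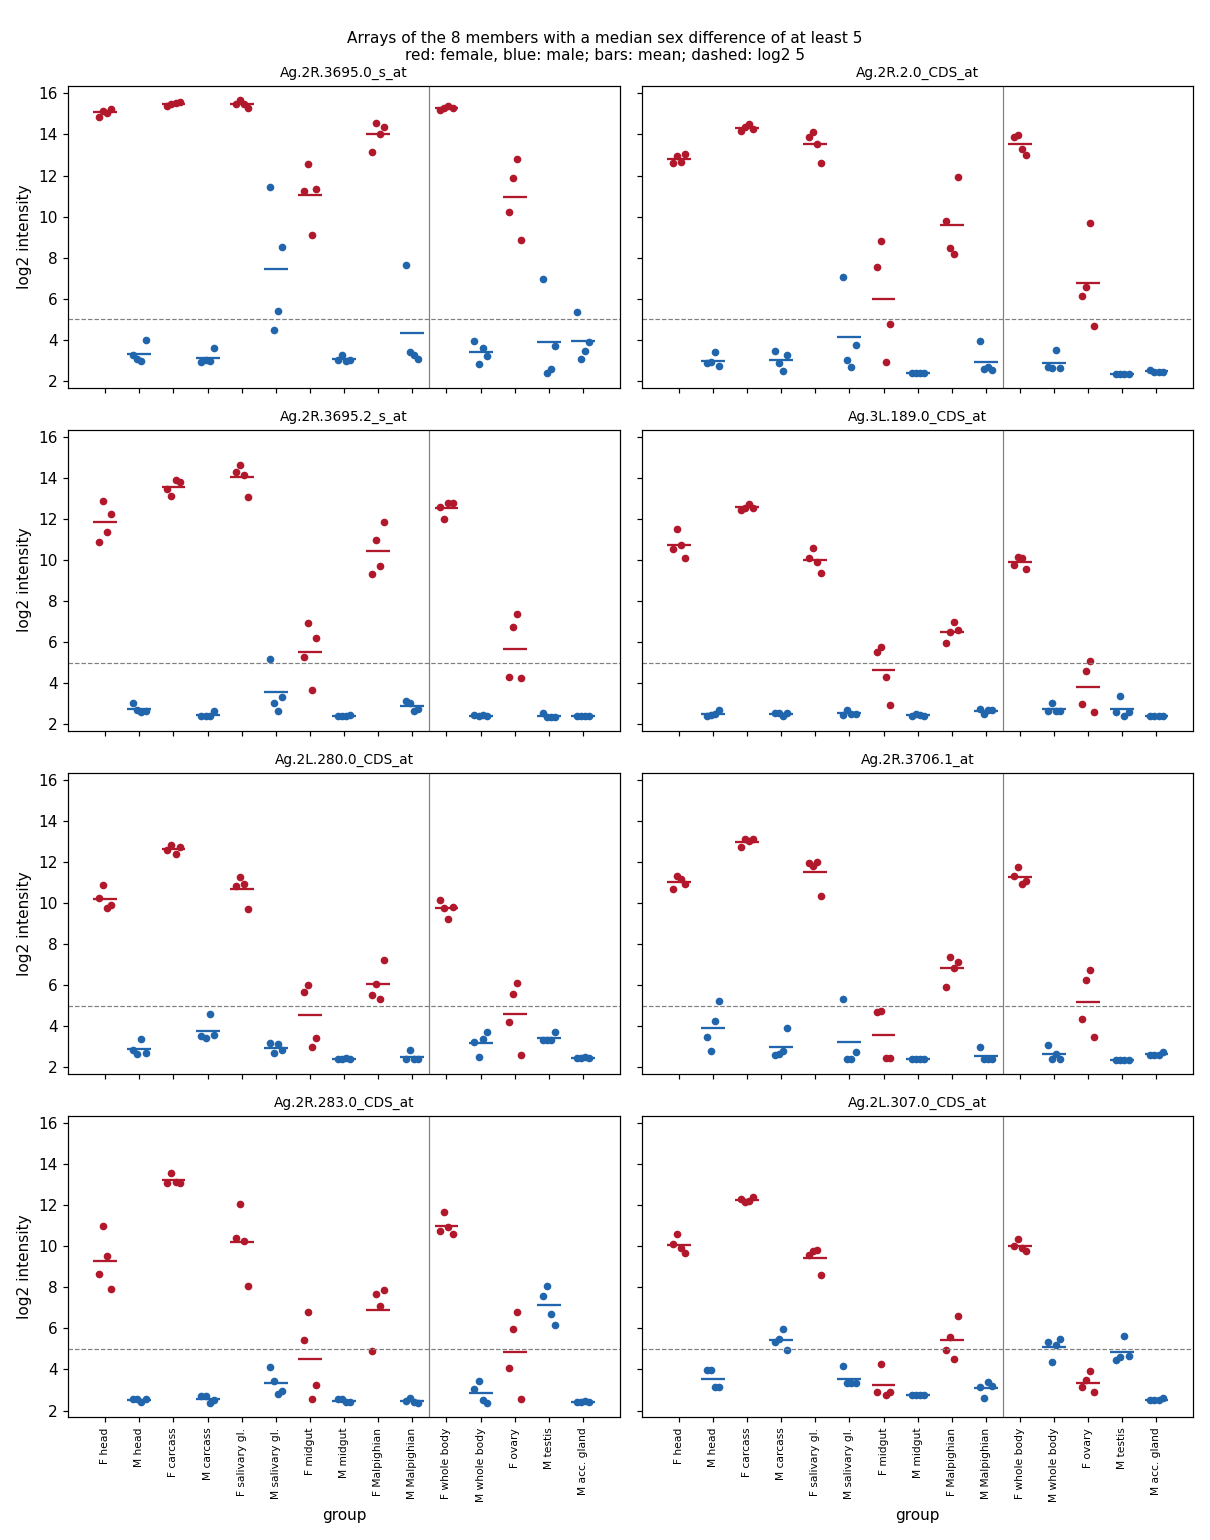
Log2 intensity of each array for the 8 members with a median sex difference of at least 5, in the 15 groups (red female, blue male; bars are means of 4 arrays, the dashed line is the level limit of 5). Female head, carcass and salivary gland arrays stand far above the male ones in all 8 panels, the female midgut and ovary arrays scatter, and the first male salivary gland array of Ag.2R.3695.0_s_at reaches 11.44.

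The fat body marker lipophorin itself differed between the sexes in some of these dissections. It was higher in females by 2.94 in the salivary gland (12.08, 12.96, 12.18 and 11.01 in females, against 9.14, 8.21, 10.14 and 8.99 in males) and by 2.78 in the Malpighian tubules (8.18, 8.91, 7.58 and 10.03 in females, against 7.0, 5.76, 5.95 and 4.86 in males). In both tissues the female and male arrays did not overlap. In head, carcass and whole body it differed by 0.42, 0.32 and -0.23, and in midgut by -0.95, with overlapping arrays in each. In female salivary glands replicate 4 was the lowest array for lipophorin and for all 8 members above, and replicate 2 was the highest for lipophorin and for 6 of them. In the ovary replicate 3 was the highest for lipophorin and for all 7 of the 8 members with any ovary array at the limit, and replicate 4 was the lowest for lipophorin and for all 7. In female midguts replicate 2 was the highest for lipophorin and for all 6 of the 8 members with an array at the limit, and replicate 3 was the lowest for lipophorin and for 5 of these. In female Malpighian tubules 5 of the 8 had the same highest replicate as lipophorin and 3 the same lowest. In female carcass 2 had the same highest and 1 the same lowest, and in female heads 0 and 4. The other 63 members were counted likewise where any array reached the limit. The same highest and lowest were found in 34 and 38 of 63 in female salivary glands and 6 and 14 of 49 in the ovary. The counts were 1 and 12 of 54 in female midgut, 20 and 33 of 61 in Malpighian tubules, 19 and 34 of 63 in carcass and 7 and 19 of 57 in head. In female whole body the counts were 1 and 4 of the 8, and 35 and 32 of 62 others. In male whole body they were 24 and 28 of 54 others. Lipophorin itself averaged 5.16 in female midgut and 5.23 in the ovary, close to the limit. In ovary replicate 4, 4927 mosquito probe sets reached the limit, against 4621, 4556 and 4541 in replicates 1, 2 and 3. The share of all probe sets with the same highest or lowest replicate as lipophorin is not given here. Nothing is therefore read from these counts of shared replicates. The part of fat body content in the values of any of these tissues was not tested. With the salivary gland and Malpighian tubules left out and the rule required in head, carcass and midgut, a choice made after the values were seen, 46 probe sets met the rule, of which 28 are among the 71. In bulk tissue, fewer cells of a type and less RNA per cell cannot be told apart.

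The 12 further members that met the rule in all 5 tissues had median differences between 1.85 and 4.05. All of them but Ag.3L.176.0_CDS_at had a male mean at or above the limit in at least 3 of the 5 tissues. Ag.2R.424.0_CDS_a_at differed most in the salivary gland and the midgut. In midguts it read 11.87, 11.90, 11.74 and 11.96 in females, against 6.12, 6.21, 6.94 and 6.93 in males. In the Malpighian tubules the difference was 1.19, with female arrays at 7.43, 8.13, 6.72 and 8.30, against 6.03, 6.18, 6.98 and 6.63 in males. The sexes were far apart in the midgut and overlapped in the Malpighian tubules.

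Ag.3L.176.0_CDS_at (AGAP012247) was below the limit in males in every somatic tissue. Its differences were 2.85 in head, 3.53 in carcass, 3.93 in salivary gland, 5.0 in midgut and 4.66 in Malpighian tubules. In midguts it read 7.06, 7.71, 8.57 and 8.26 in females, against 2.51, 3.03, 3.03 and 3.03 in males. The sexes were apart in all 5 tissues, and the transcript was at the floor in ovary, testis and accessory gland.

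Ag.X.124.0_CDS_a_at (AGAP000881) was bright in gut and tubules of both sexes, and its largest difference was in the carcass. There it read 13.10, 12.74, 12.26 and 12.72 in females, against 6.04, 5.94, 6.75 and 6.26 in males. In midguts it read 13.20, 12.87, 12.67 and 13.32 in females, against 11.44, 10.999, 11.27 and 11.70 in males. The difference was 6.46 in carcass and 1.66 in midgut, with no overlap in either.

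Ag.3L.145.0_CDS_a_at (AGAP011948) differed by 8.09 in the salivary gland, where the females read 13.62, 13.73, 13.41 and 13.65 and the males 7.76, 5.16, 4.64 and 4.52. In heads it was 11.86, 11.82, 11.61 and 11.71 in females, against 10.14, 9.93, 9.92 and 9.58 in males. Here too replicate 1 was the highest male salivary gland array, well below the females. Ag.2L.661.0_CDS_a_at (AGAP006548) had similar differences in head (2.70), carcass (2.84) and salivary gland (2.63) and smaller ones in midgut (1.77) and Malpighian tubules (1.11). In the Malpighian tubules it read 7.23, 6.99, 6.81 and 7.12 in females, against 6.22, 5.39, 6.09 and 6.02 in males. The female arrays all lay above the male ones there.

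The other 7 of the 15 were Ag.2L.3944.0_at, Ag.2R.346.1_CDS_a_at and Ag.2R.346.1_CDS_s_at, Ag.3L.286.0_CDS_at, Ag.2R.804.0_CDS_at, Ag.X.5.0_CDS_a_at (AGAP000719) and Ag.X.76.1_UTR_s_at (AGAP001065). The Ag.2R.346 pair differed most in the midgut, by 5.87 and 4.57, and by 1.34 each in the Malpighian tubules. Ag.2L.3944.0_at differed by 3.75 in head and 1.78 in Malpighian tubules, and Ag.X.76.1_UTR_s_at by 3.32 in salivary gland and 1.17 in midgut.

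Of the 56 members that missed a tissue, 28 missed the midgut, 15 the head, 11 the Malpighian tubules and 2 the salivary gland, and none missed the carcass. In 7 of the 56, 6 of them in the midgut, the difference reached 1 in the tissue missed and only the female level fell short. The difference in the tissue missed ran between -1.60 and 2.17, with a median of 0.45, and was below 0 in 12 members.

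It was -1 or less in 2 members. Ag.2L.211.0_CDS_at read 2.69, 2.57, 2.95 and 2.51 in female heads, against 4.03, 4.47, 4.56 and 4.06 in male heads, a difference of -1.60 with means below the level limit in both sexes. In midguts it read 12.47, 13.04, 13.75 and 13.45 in females, against 8.02, 8.42, 10.005 and 9.59 in males. The order of the sexes in the head was thus the reverse of that in the midgut, with no overlap in either tissue. Ag.UNKN.47.0_CDS_s_at differed by -1.31 in the Malpighian tubules and by 1.55 to 2.78 in the other 4 tissues.

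The other members that missed a tissue and had median differences between 2.46 and 4.05 spread over different tissues. Ag.2L.338.0_CDS_a_at differed by 7.52 in the salivary gland and 5.21 in the Malpighian tubules, and missed the midgut, where the difference was 1.19 with a female mean below the limit. The Ag.3R.652 pair, Ag.3R.652.0_CDS_at and Ag.3R.652.0_UTR_at, differed most in the midgut, by 5.26 and 5.61, and by -0.29 and 0.03 in the head. Ag.3R.329.1_CDS_at, Ag.3R.349.0_CDS_at and Ag.2R.2273.0_CDS_at had their largest differences in the salivary gland, at 3.91, 3.68 and 4.08. The members below these, with median differences of 2.36 or less, are given by counts and ranges, except where a feature seen in their values is the reason for naming them.

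Ag.3R.795.0_CDS_at and Ag.2L.440.0_CDS_a_at had large midgut differences and missed the Malpighian tubules. In midguts Ag.3R.795.0_CDS_at read 11.43, 9.34, 9.82 and 10.05 in females, against 3.66, 2.96, 2.99 and 2.79 in males. Ag.2L.440.0_CDS_a_at read 9.90, 9.31, 9.73 and 9.62 in female midguts, against 3.68, 3.11, 2.56 and 2.73 in male midguts. Both were below the limit in male midgut and measured in male carcass, at means of 6.71 and 7.74.

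Ag.2L.203.0_CDS_at (AGAP005581) missed the midgut, where it was measured in both sexes at 8.08, 7.82, 8.52 and 9.23 in females, against 8.70, 8.72, 8.11 and 8.97 in males. In carcass it read 10.77, 10.29, 10.19 and 11.12 in females, against 7.87, 7.41, 7.70 and 8.25 in males. The sexes overlapped in the midgut and not in the carcass. Ag.2R.1589.0_CDS_at was 1 of the 2 members that missed the salivary gland, with 6.62, 5.59, 6.48 and 6.34 in females, against 6.88, 6.27, 7.48 and 7.86 in males.

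Some members met the rule through few arrays. All 4 female arrays lay above all 4 male arrays in at least 4 tissues in 59 members, in 3 tissues in 8, and in fewer than 3 in 4 members. Ag.3R.5.0_CDS_a_at did so in the midgut alone, at 13.58, 13.83, 14.14 and 14.36 in females, against 11.61, 11.10, 11.65 and 12.11 in males. In carcass it read 10.16, 3.51, 4.21 and 3.64 in females, against 3.51, 3.51, 3.57 and 2.89 in males, so that replicate 1 alone carried the female mean over the limit. In the salivary gland its female arrays were 4.07, 3.93, 6.02 and 9.61, against 3.94, 4.45, 3.93 and 3.96 in males.

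Ag.3L.9.0_CDS_s_at was at 15.63, 15.49, 15.42 and 15.40 in female salivary glands, against 9.61, 10.33, 10.78 and 10.80 in male ones. In the Malpighian tubules it read 3.45, 3.17, 9.55 and 3.94 in females, against 2.51, 2.51, 2.68 and 2.95 in males, so replicate 3 alone carried that tissue. In heads it read 5.43, 5.97, 9.52 and 9.36 in females, against 3.49, 2.66, 3.56 and 3.78 in males. Here the female arrays were all above the male ones but spread over 4 units of log2. Applying the rule to 3 arrays a group, with each replicate number left out in turn, 49 of the 71 members were found in all 4 sets, 15 in 3, 6 in 2 and 1, Ag.3R.344.0_UTR_at, in 1.

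Around the threshold of 1, the members just inside by their fourth-largest difference were Ag.3R.344.0_UTR_at at 1.02 and Ag.2L.621.1_CDS_s_at and Ag.2L.294.0_CDS_at at 1.03 each. Just outside were Ag.2L.2879.0_s_at at 0.98, Ag.3L.203.0_CDS_at at 0.97 and Ag.UNKN.275.0_CDS_a_at at 0.93.

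In the whole body, which the rule did not use, 54 of the 71 members were called higher in females, none lower, and 17 were not called. A call required an absolute log2 difference of at least 1 and a Benjamini-Hochberg adjusted p under 0.05 in limma, a linear model with moderated variances fitted to all 16884 probe sets, with 4 arrays per sex. Over all probe sets 12.0% were called higher and 10.9% lower in females, whereas 76.1% of the members were called higher. Among the 5821 probe sets at or above the limit in at least 3 of the 4 arrays of either sex, 30.6% were called higher and 28.5% lower. A probe set can pass this filter through 1 group alone. Of the members, 69 passed it, and in the fit to those 5821 probe sets 56 were called higher and 0 lower. All 4 female body arrays lay above all 4 male ones in 54 members and in 17.8% of all probe sets. With no limit on size or sign, 58 of the 71 had an unadjusted limma p under 0.05. The share of all probe sets at that limit is not given here, so nothing is read from this count. The differences ran between -0.93 and 11.86 with a median of 1.97, where the median over all probe sets was 0. The whole body holds the same tissues and the ovary, so it is a separate set of arrays but not a separate tissue.

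The largest whole-body differences were in members already near the floor in male tissues. Ag.2R.3695.0_s_at read 15.17, 15.27, 15.36 and 15.27 in females, against 3.97, 2.82, 3.62 and 3.22 in males, a difference of 11.86 (SE 0.24, limma adjusted p = 9.54e-07). Taken against the level limit of 5 in place of the male mean, this was at least 1232-fold higher. Ag.2R.2.0_CDS_at read 13.89, 13.95, 13.28 and 12.98 in females, against 2.66, 2.65, 3.49 and 2.62 in males, a difference of 10.67 (SE 0.31, limma adjusted p = 3.57e-06) and at least 368-fold. No female array came near a male one in either.

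Ag.2R.3695.2_s_at differed by 10.11 (SE 0.18, at least 183-fold), Ag.2R.3706.1_at by 8.64 (SE 0.23, at least 77.3-fold) and Ag.2R.283.0_CDS_at by 8.14 (SE 0.33, at least 62.9-fold), all with limma adjusted p-values of 1.26e-05 or lower. All 8 members with a median somatic difference of at least 5 were called higher in the whole body, and their arrays lay between 9.24 and 15.36 in females, against 2.37 to 5.46 in males.

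Ag.3R.344.0_UTR_at, the member nearest the threshold, had a whole-body difference of 7.43 (SE 0.35, limma adjusted p = 2.11e-05), at 12.99, 12.94, 13.23 and 12.83 in females, against 6.40, 5.90, 4.84 and 5.14 in males. In female carcass it read 5.46, 5.92, 9.01 and 7.94, against 4.11, 4.53, 4.53 and 4.44 in male carcass. Its female somatic arrays lay far below the female whole-body arrays. Ag.3L.9.0_CDS_s_at, bright in the salivary gland, read 9.82, 9.01, 9.87 and 9.58 in female bodies, against 3.35, 3.35, 3.17 and 3.51 in male bodies, a difference of 6.23 (SE 0.20, limma adjusted p = 5.47e-06).

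Of the 17 members not called in the whole body, 3 had a difference of at least 1, 11 a difference between 0 and 1, and 3 a difference below 0. Ag.3L.176.0_CDS_at, apart between the sexes in all 5 somatic tissues, read 5.64, 5.72, 3.51 and 3.19 in female bodies, against 2.87, 2.83, 3.35 and 2.98 in male bodies, a difference of 1.51 (SE 0.66, limma adjusted p = 0.157). Replicates 3 and 4 of the female body lay within or next to the male range. Ag.3R.329.1_CDS_at differed by 1.57 (SE 0.53, limma adjusted p = 0.074) and Ag.X.71.1_CDS_a_at by 1.72 (SE 0.55, limma adjusted p = 0.060). The other probe set of its stem, Ag.X.71.2_s_at, was called higher, at 1.93 (SE 0.45, limma adjusted p = 0.0172). The Ag.2R.2273 pair was split likewise. Ag.2R.2273.0_CDS_at was called at 1.36 (limma adjusted p = 0.00894) and Ag.2R.2273.1_CDS_a_at was not, at 0.58 (limma adjusted p = 0.429).

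The 3 negative values were -0.93 in Ag.2L.682.0_CDS_at (SE 0.43, limma adjusted p = 0.180), -0.36 in Ag.UNKN.59.0_CDS_at and -0.17 in Ag.2L.440.0_CDS_a_at. Without female body replicate 1, Ag.2L.682.0_CDS_at was called lower in females, at -1.33 (limma adjusted p = 0.00858). Ag.2L.440.0_CDS_a_at read 7.83, 6.89, 7.28 and 6.98 in female bodies, against 7.35, 7.20, 7.69 and 7.43 in male bodies. These overlap, although the same probe set was higher by 6.62 in female midguts. It averaged 2.63 in the ovary, 6.07 in the testis and 6.10 in the accessory gland.

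Several calls were close to the limits. Ag.2L.3944.0_at was called at 1.81 (SE 0.54, limma adjusted p = 0.0467) and the Ag.2R.346 pair at 1.07 and 1.02 (limma adjusted p = 0.0356 and 0.0206). Ag.2L.661.0_CDS_a_at was called at 1.31 (limma adjusted p = 0.0276), with female bodies at 10.76, 10.54, 9.70 and 9.31, against 8.95, 8.56, 8.86 and 8.70 in male bodies. These 4 lost the call when any of several single arrays was left out, with values between 0.87 and 2.21 over all 8 such fits.

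**Figure D4:**
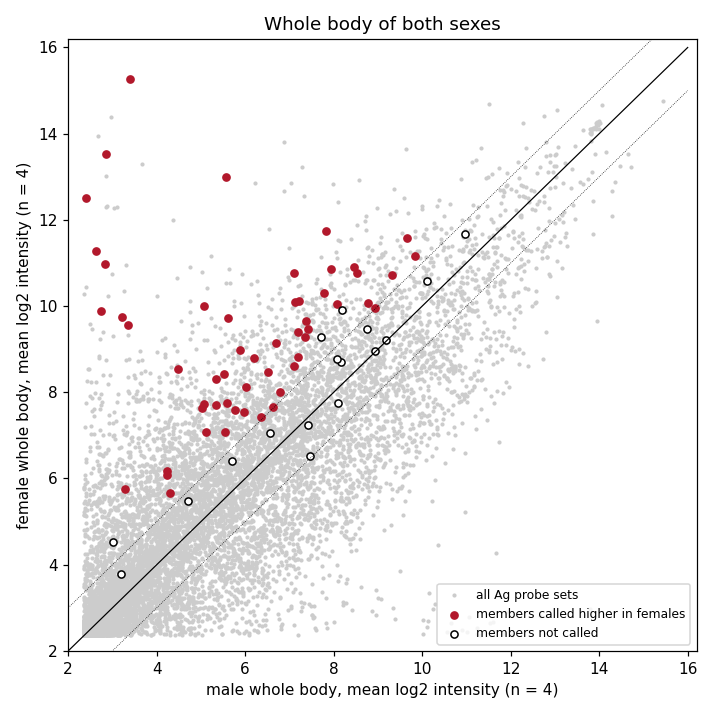
Mean log2 intensity in female whole body (vertical) and male whole body (horizontal), n = 4 arrays each, for all probe sets (grey) and the 71 members (red where called higher in females, open where not called); the solid line marks equal levels and the dotted lines a difference of 1 either way. The 54 called members lie above the upper dotted line, and the members with the highest female to male difference stand at the upper left.

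In the ovary 49 of the 71 members had a mean at or above the limit of 5, in the testis 41 and in the accessory gland 32. Over all probe sets the shares at or above the limit were 27.7% in ovary, 33.8% in testis and 23.0% in accessory gland. All 3 means were below the limit in 13 members. Ovary and testis were set against each other by limma on 8 arrays. Of the members, 37 (52.1%) were called higher in the ovary, where 12.9% of all probe sets were, and 9 (12.7%) lower, where 19.4% of all probe sets were. Among the 6330 probe sets at or above the limit in at least 3 of the 4 arrays of either tissue, the shares were 29.7% higher and 37.5% lower. Of the members, 52 passed this filter, and in the fit to those 6330 probe sets 33 were called higher and 8 lower. With no limit on size or sign, 55 members had an unadjusted limma p under 0.05. These include differences as small as 0.03 at the floor, in Ag.X.471.0_CDS_at. The share of all probe sets at that limit is not given here, so nothing is read from this count. The differences ran between -4.24 and 7.03 with a median of 1.29, beside 0.02 over all probe sets. Centring each array on its median moved the median of all probe sets to 0.48 and the members called to 45 higher and 9 lower, and quantile normalization of all arrays gave 41 higher and 7 lower. Over all probe sets the share of calls that were higher in the ovary was 39.9%, against 55.2% after centring and 53.7% after quantile normalization.

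Ag.2R.3695.0_s_at led this comparison, with 10.22, 11.89, 12.78 and 8.86 in the ovary, against 6.96, 2.37, 2.61 and 3.69 in the testis, a difference of 7.03 (SE 1.33, limma adjusted p = 0.0027). The ovary arrays spread over nearly 4 units but none reached down to a testis array. Ag.2R.1589.0_CDS_at read 11.13, 11.85, 11.58 and 8.98 in the ovary, against 4.10, 4.13, 4.23 and 4.09 in the testis, a difference of 6.75 (SE 0.63, limma adjusted p = 7.13e-05). Ag.3L.145.0_CDS_a_at (AGAP011948) read 10.88, 11.03, 10.20 and 10.001 in the ovary, against 5.34, 5.33, 5.0 and 5.27 in the testis, a difference of 5.29 (SE 0.26, limma adjusted p = 2.92e-06). In the last of these the ovary arrays were close together.

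The 9 members called lower in the ovary than in the testis were Ag.UNKN.59.0_CDS_at (-4.24), Ag.2L.258.0_CDS_at (-3.91), Ag.2L.440.0_CDS_a_at (-3.44), Ag.2R.424.0_CDS_a_at (-3.05), Ag.2R.342.0_CDS_at (-2.87), Ag.3R.25.0_CDS_a_at (-2.52), Ag.2L.260.0_CDS_a_at (-2.44), Ag.2L.682.0_CDS_at (-1.73) and Ag.2L.307.0_CDS_at (-1.48). Ag.2R.424.0_CDS_a_at, high in female midgut, read 3.11, 2.59, 2.59 and 2.42 in the ovary, against 6.04, 5.67, 5.67 and 5.51 in the testis (SE 0.18, limma adjusted p = 8.52e-06). All ovary arrays were near the floor. After quantile normalization Ag.2L.307.0_CDS_at and Ag.2L.682.0_CDS_at lost the call, at -0.32 and -0.77.

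Ag.2R.283.0_CDS_at, at the floor in male soma, was measured in the testis. It read 4.05, 5.96, 6.81 and 2.54 in the ovary, against 7.57, 8.08, 6.70 and 6.16 in the testis, a difference of -2.29 (SE 1.02, limma adjusted p = 0.0812), which was not called. Without ovary replicate 3 it was called, at -2.94 (limma adjusted p = 0.0332). The arrays of the tissues overlapped only through that replicate. Lipophorin averaged 5.23 in the ovary, 9.85 in the testis and 6.64 in the accessory gland, and its part in these values was not tested. Of the 8 members with the largest somatic difference, 4 were called higher in the ovary than in the testis. Ag.2R.3706.1_at and Ag.2R.3695.2_s_at were 2.85 and 3.27 higher, and each had a pair of ovary arrays below the limit of 5.

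The accessory gland was compared with the same ovary arrays, so this comparison and that with the testis are not independent. Of the members, 42 (59.2%) were called higher in the ovary, where 18.5% of all probe sets were, and 6 (8.45%) lower, where 9.13% of all probe sets were. Among the 5198 probe sets at or above the limit in at least 3 of the 4 arrays of either tissue, the shares were 49.6% higher and 19.9% lower. Of the members, 49 passed this filter, and in the fit to those 5198 probe sets 38 were called higher and 5 lower. With no limit on size or sign, 54 members had an unadjusted limma p under 0.05, again with no share of all probe sets beside it. The differences ran between -7.84 and 9.70 with a median of 2.08, beside -0.02 over all probe sets. Quantile normalization gave 37 members higher and 10 lower, and moved the share of all calls that were higher in the ovary to 49.8%, against 66.9% as deposited.

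Ag.3R.344.0_UTR_at had the largest positive difference, 9.70 (SE 0.40, limma adjusted p = 1.50e-06), with 13.71, 12.66, 12.56 and 13.77 in the ovary, against 4.17, 3.13, 3.48 and 3.13 in the accessory gland. It was also measured in the testis, at 9.19, 9.5, 9.38 and 8.75. Its ovary arrays thus stood above both male reproductive tissues, whose arrays were themselves apart.

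The 6 members called lower in the ovary than in the accessory gland were Ag.X.471.0_CDS_at (AGAP000181), Ag.3R.795.0_CDS_at, Ag.2L.440.0_CDS_a_at, Ag.2R.424.0_CDS_a_at, Ag.2L.203.0_CDS_at (AGAP005581) and Ag.2L.621.1_CDS_s_at. Ag.X.471.0_CDS_at read 2.38 in each ovary array, against 9.80, 10.13, 10.52 and 10.43 in the accessory gland, a difference of -7.84 (SE 0.16, limma adjusted p = 3.21e-08). In the Malpighian tubules the same probe set read 10.64, 10.75, 9.76 and 10.04 in females, against 3.55, 3.77, 3.55 and 3.55 in males. It was therefore bright in 1 male tissue, the accessory gland, and at or near the floor in the male tubules, testis and head.

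Ag.3R.795.0_CDS_at read 4.11, 5.78, 4.08 and 6.58 in the ovary, against 10.65, 10.77, 10.85 and 10.77 in the accessory gland, a difference of -5.62 (SE 0.60, limma adjusted p = 0.00017). Ag.2L.203.0_CDS_at read 9.61, 9.83, 9.23 and 10.64 in the ovary, against 11.23, 11.39, 12.10 and 11.83 in the accessory gland, a difference of -1.81 (SE 0.35, limma adjusted p = 0.00315). The accessory gland arrays lay above the ovary arrays in both. Of the 8 members with the largest somatic difference, 5 were called higher in the ovary than in the accessory gland, and Ag.2L.280.0_CDS_at, at 2.16 (limma adjusted p = 0.0406), lost the call in 7 of the 8 fits with 1 array left out. Ag.2R.3706.1_at, at 2.57 (limma adjusted p = 0.0202), lost it without ovary replicate 2, at 2.22 (limma adjusted p = 0.0506). In the whole body Ag.2L.203.0_CDS_at was called higher in females, by 2.26 (SE 0.35, limma adjusted p = 0.00281), and Ag.3R.795.0_CDS_at was not called, at 0.49 (SE 0.45).

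Ovary means were set beside those of the 5 female somatic tissues, with the limit that tissues were normalized separately. The rule required a level in the female soma and not in the ovary, so nothing is read from how often a somatic tissue was brighter. The brightest of the 5 female somatic tissues was the carcass in 40 members, the Malpighian tubules in 17, the midgut in 7, the salivary gland in 6 and the head in 1. At least 1 female somatic tissue was above the ovary in 57 members, all 5 were in 23, and the ovary was above all 5 in 14. The ovary mean was below the limit in 22 members, of which 13 were called higher in female whole bodies. The share called among all probe sets below the limit in the ovary is not given here, so nothing is read from this count either.

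The ovary mean was 10 or more in 12 members, of which 11 were called higher in female whole bodies. The whole body holds the ovary, and the share called among all probe sets with such ovary means is not given here. Nothing is therefore read from this count. Ag.3R.344.0_UTR_at was at 13.18 in the ovary and 7.08 in female carcass, and Ag.UNKN.95.0_CDS_at at 12.51 and 7.60. Ag.2L.294.0_CDS_at was at 11.79 in the ovary and 10.21 in female carcass. Ag.2L.627.0_CDS_at, also among the 5 highest ovary means, averaged 9.24 in female carcass and was 2.57 higher in the ovary than in the testis. To show how ovary transcripts read in the female soma, 21 probe sets were taken that averaged 10 or more in the ovary and under 5 in every male group, a choice made after the values were seen. Their medians were 2.53 in female head, 3.78 in carcass, 3.44 in salivary gland, 2.83 in midgut and 2.87 in Malpighian tubules. In female carcass 5 of the 21 reached the limit of 5 and in female salivary gland 7 did, up to 7.06 and 8.19. The part of ovary RNA in the somatic values of the members with bright ovary signal was not tested.

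**Figure D5:**
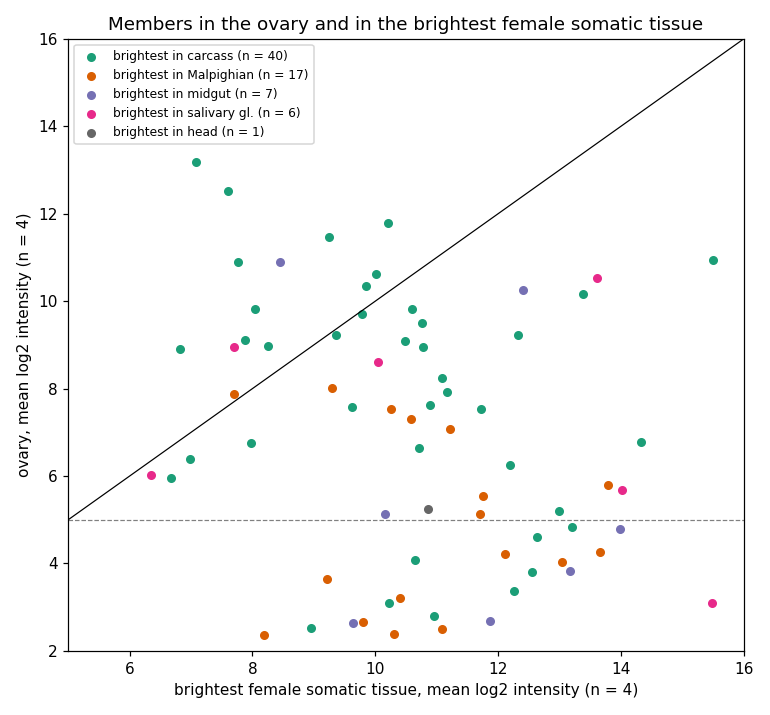
Mean log2 intensity in the ovary (vertical) and in the brightest female somatic tissue (horizontal) for the 71 members, n = 4 arrays each; colour gives the brightest somatic tissue, the solid line equal values and the dashed line the level limit of 5. The points above the solid line are the 14 members in which the ovary exceeded every female somatic tissue, and 22 points lie below the dashed line.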

How the data were processed

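The deposited values are linear intensities, 1 per probe set and array. Per the study's methods the authors labelled 50 ng of RNA per array in a 2-cycle protocol, mapped probes to the AgamP3 assembly and normalized arrays within each tissue (the 2 sexes of a tissue share a floor value in the files), and the submitters' processing notes name GCRMA (version not given in the sources used here). Because of this, each tissue has its own floor and scale. Probe sets whose names begin with Ag. (16884 of 22761) were kept and log2 was taken of the deposited intensities with no further scaling. Samples were grouped by the sex and tissue in the labels, 4 arrays each. Array number limits the precision, and depth does not apply.

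The members and lists were chosen with earlier results of these data known. Named are the 15 members that met the rule in all 5 tissues, further members by median difference to 30, the 5 highest and 5 lowest ovary means, and the 5 largest whole-body differences, with others named for a feature seen in their values. Genes were matched to probe sets through the relative abundance values of the study's orthologue table, recomputed from the intensities (tolerance 0.0006, at least 3 tissues), which joined 1174 of 1352 genes tried. Gene names, functions and sequences of the other probe sets were not used here. Whole body, ovary with testis and ovary with accessory gland were tested with limma 3.58.1 (lmFit and eBayes, R 4.3.3), Benjamini-Hochberg adjusted over 16884 probe sets, and called at an adjusted p under 0.05 with an absolute log2 difference of at least 1. No detection calls were used. A level limit of log2 5 was applied in their place, and "at least" folds replace a lower mean by that limit. The script was tested on simulated whole-body data with independent normal noise. The 200 changed probe sets of 16884 were drawn from those with a mean of at least 5. The script recovered 67% of those changed by 1.5 and 93% of those changed by 3, with 1 false call of 161. These rates do not cover probe sets with lower means. Alternatives were other normalizations, filters, thresholds, fits, a replicate block and leaving out each array. Values were computed with Python 3.11.15, pandas 2.3.3 and numpy 2.4.6.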

Additional observations from a re-analysis of the deposited data

Results flagged for a closer look

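Single arrays far from the other 3 of their group (Dixon's test) were found in 11 of 227 groups of values examined for the 23 members whose arrays are described, and chance alone flags about 1 in 20. Of the 8 leading members, Ag.2R.3695.0_s_at stood at 7.62 in male Malpighian tubule replicate 1, Ag.2R.283.0_CDS_at at 13.57 in female carcass replicate 2, and Ag.2R.3706.1_at at 10.33 in female salivary gland replicate 4 and at 5.31 in male salivary gland replicate 1. Ag.3R.5.0_CDS_a_at stood at 10.16 in female carcass replicate 1 and at 9.71 in ovary replicate 3, and Ag.2L.211.0_CDS_at at 7.85 in ovary replicate 3, where the other 3 ovary arrays read 2.49, 2.49 and 2.50. Ag.3L.9.0_CDS_s_at stood at 9.55 in female Malpighian tubule replicate 3. Ag.2L.203.0_CDS_at stood at 10.69 in female Malpighian tubule replicate 4 and at 7.80 in male head replicate 2, and Ag.2R.1589.0_CDS_at at 6.55 in male midgut replicate 4.

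The female minus male difference of Ag.2L.211.0_CDS_at was -1.60 in the head, with all female arrays below all male ones, while in 3 other somatic tissues all female arrays lay above all male ones. The difference between these tissues was not tested.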

How the results depend on the processing

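The number of members is set by the thresholds. It was 162 at a 1.5-fold difference, 21 at a log2 difference of 2, 204 with 3 tissues required, 15 with all 5, and 39 where a limma call was required in 4 tissues. Without the probe sets whose names end in _s_at or _x_at it was 60. With head, carcass and midgut as the only tissues, an alternative added after the data were seen, it was 46. Leaving out each replicate in turn gave 70 to 72. Whole-body members called higher numbered 34 at a log2 difference of 2, and 48 to 53 with 1 array left out, those called lower 0 to 1. For ovary and testis the members called higher numbered 36 to 38 and lower 9 to 10 with 1 array left out, and 4 were lower where a mean of at least 5 was required. For ovary and accessory gland they numbered 40 to 45 and 6 to 7 with 1 array left out, and those called lower 10 after quantile normalization and 3 at a log2 difference of 2.

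Replicate numbers are shared between groups, and in the tested comparisons arrays with the same number did not all deviate together (whole-body r of -0.03, 0.13, 0.25 and 0.0041, ovary and testis -0.08 to 0.09, ovary and accessory gland -0.11 to 0.0058), so the numbers were not taken as pairs there. In the Malpighian tubules, where no test was made, all 4 same-number pairs correlated (0.14, 0.15, 0.20 and 0.17) and each was best with its own number, as were 3 of 4 in carcass, salivary gland and midgut and 0 of 4 in head. With the number as a block, the whole body gave 45 members higher and 0 lower, ovary with testis 37 and 9, and ovary with accessory gland 39 and 6.

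Values of single members were followed through the alternatives for 41 of the 71 members. Among these, the following values, none of them called in the fit as reported, changed sign. For ovary minus testis, Ag.3R.349.0_CDS_at (-0.02) was 0.071 after quantile normalization, 0.43 after centring and -0.14 to 0.11 with 1 array left out, and Ag.3R.795.0_CDS_at (-0.07) was 0.76, 0.38 and -0.55 to 0.28. Without ovary replicate 3, Ag.2L.211.0_CDS_at (0.90) was -0.43, the lowest of -0.43 to 1.35 with 1 array left out. Ag.3R.5.0_CDS_a_at (0.70) was likewise -0.93 of -0.93 to 1.29, and Ag.3L.9.0_CDS_s_at (0.06) was -0.24 of -0.24 to 0.18. At the floor, Ag.3L.176.0_CDS_at (-0.27) was 0.18 after centring and Ag.X.471.0_CDS_at (0.03) was -9e-06 after quantile normalization. For ovary minus accessory gland, Ag.2L.3944.0_at (-0.03) was 0.015 after centring and -0.076 to 0.0051 with 1 array left out, Ag.3L.176.0_CDS_at (-0.03) was 0.019 after centring, and Ag.X.5.0_CDS_a_at (0.81) was -0.26 after quantile normalization. The cause of these changes was not tested.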
